A study of Mus musculus with 8 samples.

Results

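The Hippo pathway and its target genes were followed in the prefrontal cortex (PFC) of Rnf146-overexpressing mice. The genes were fixed by name, namely *Yap1*, *Wwtr1*, *Tead1*, *Tead2*, *Tead3*, *Lats1*, *Lats2*, *Ccn1*, *Ccn2* and *Ankrd1*, as parts and targets of the pathway, and the rule used no threshold on their values. Of these 10 genes, 9 had values among the 15039 genes of the deposited table, and *Ankrd1* had none. RNA sequencing covered 8 libraries, 4 from Rnf146-overexpressing and 4 from eGFP-overexpressing mice. All mice were wild-type males of the strain C57BL/6NCrljOri that received an AAV2/1 vector into the PFC of both hemispheres at 6 weeks of age, and the tissue was taken 4 weeks later. The control vector carried eGFP, and the other vector carried mouse Rnf146 with eGFP, so that eGFP was expressed in both groups. Both vectors used the hsyn promoter, which restricts expression to neurons, whereas the RNA came from the whole dissected tissue. The study describes sequencing mice in which Rnf146 overexpression and a social deficit had been seen, which limits the Rnf146 group as a sample of injected mice.

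The Hippo pathway is a kinase cascade in which MST kinases activate the LATS kinases, and LATS phosphorylates the coactivators YAP and TAZ so that they stay in the cytoplasm. Unphosphorylated YAP and TAZ enter the nucleus, bind the TEAD transcription factors and induce genes such as *Ccn1*, *Ccn2* and *Ankrd1*. RNF146 touches this pathway through the angiomotins, proteins that hold YAP in the cytoplasm and at cell junctions. Tankyrase attaches poly(ADP-ribose) to angiomotins, and RNF146 recognizes this mark and ubiquitinates them for degradation, in the same way as it does Axin in the Wnt/β-catenin pathway. In the adult brain, YAP and TAZ are known mainly from astrocytes, ependyma and cells of the vessels and meninges. These steps act on proteins, and the data here are RNA levels.

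TEAD factors bind the letters GGAATG, read on either strand (CATTCC on the other). The upstream sequences of the coactivator genes and of *Ccn1* are shown because they hold these letters close to the start of transcription. Capitals mark the motif, each sequence is written in the direction of its gene, and each was taken from RefSeq's promoter windows (GRCm38.p6) and matched exactly once in GRCm39.
Yap1, chr9:8004693-8004778 of GRCm39, minus strand: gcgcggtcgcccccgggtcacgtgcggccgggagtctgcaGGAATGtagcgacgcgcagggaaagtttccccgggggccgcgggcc
Wwtr1, chr3:57483422-57483507 of GRCm39, minus strand: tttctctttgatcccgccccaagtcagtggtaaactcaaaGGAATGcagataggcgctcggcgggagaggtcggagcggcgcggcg
Ccn1, chr3:145355798-145355883 of GRCm39, minus strand: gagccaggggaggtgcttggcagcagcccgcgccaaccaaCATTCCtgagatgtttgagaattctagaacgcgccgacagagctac

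The motif began 141 bases before the RefSeq start of *Yap1*, 136 bases before that of *Wwtr1* and 103 bases before that of *Ccn1*. All 3 stretches lie upstream of the gene they belong to in GENCODE vM39. The *Wwtr1* stretch also touches an exon of the long noncoding RNA gene *Gm65379*, and the *Ccn1* stretch overlaps an exon of the long noncoding RNA gene *Gm17501* on the opposite strand. Windows of 300 bases, from 250 before to 50 after the start, were found for 7 of the 9 genes, and 5 of these held the motif, also *Tead3* and *Lats2*. Of the 32851 windows of this length, 14.7% held it. A match of 6 letters is a description of the sequence and does not show that TEAD binds there.

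The deposited values were on a log2 scale. In each pair of libraries with the same replicate number the values had been centred, so that the 8 values of a gene hold its mean and 4 independent pair differences. By this centring, groups that do not overlap and 4 pair differences of the same sign are the same event. A difference is given on this scale as Rnf146 minus eGFP within a pair, and its error is the SD of the 4 pairs. The limma test treated the replicate number as a block (terms for the pairs), and a gene with an adjusted p up to 0.1 was called. The centring had already removed what a pair shares, so the block only left 3 in place of 6 residual degrees of freedom. *Rnf146* itself (chromosome 10 of GRCm39, 29216737 to 29238438, minus strand), in which vector and endogenous reads are counted together, was at 10.35, 10.50, 10.43 and 10.47 in the eGFP libraries and at 13.17, 13.01, 13.09 and 13.05 in the Rnf146 libraries, so every library matched its label. The excitatory cortical marker *Slc17a7* had a mean value of 14.78. All 10 cortical excitatory markers were in the table, 9 with a mean difference below 0 and 1 above. Of the 10, *Slc17a7* and *Neurod2* were called lower, beside 0.432% of all genes, both with a mean difference of -0.30. In limma 7 of the 10 had an unadjusted p under 0.05, beside 12.4% of all genes. Lower in all 4 pairs were 6 of the 10, beside 10.2% of all genes. Of 10 septal and basal forebrain genes 6 were in the table, and all 6 were called higher, beside 0.818% of all genes. Of 10 striatal genes 0 were called from limma with the block and 9 had an unadjusted p under 0.05, and their mean differed by -0.11, 1.32, 0.70 and 0.30 in the 4 pairs. In bulk tissue, fewer cells of a type and less RNA per cell cannot be told apart.

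None of the 9 Hippo and YAP genes was called (0 of 9 from limma with the replicate block), and 0 of 9 had an unadjusted p under 0.05. Over all genes, 1.25% were called, 0.818% higher and 0.432% lower, and 12.4% had an unadjusted p under 0.05. The 9 mean differences ran from -0.09 for *Ccn1* to 0.11 for *Tead1*, 5 of them above 0 and 4 below, beside 50.5% of all genes above 0. Their median was 0.0036, beside 0.00086 over all genes. For 8 of the 9 genes the mean difference was smaller than the SD of its own 4 pairs, the exception being *Tead1*. Of the 9, only *Tead1* had the same sign in all 4 pairs. Over all genes 20.6% had, 10.4% higher and 10.2% lower.

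**Figure D1:**
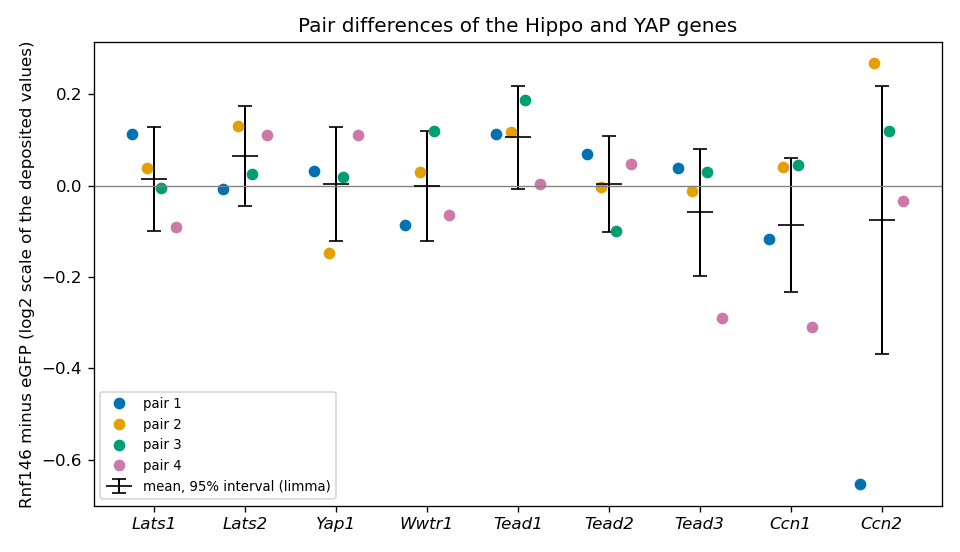
Difference between the Rnf146 and the eGFP library of each pair (coloured points, log2 scale) for the 9 genes, with the mean and its 95% interval from limma (black). All 9 intervals include 0, and the *Ccn2* difference of pair 1, -0.65, lies farthest from it.

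*Lats1* and *Lats2*, the kinases that phosphorylate YAP and TAZ, had mean differences under 0.1, and neither was called. *Lats1* (chromosome 10 of GRCm39, 7556736 to 7592226, plus strand) was at 10.61, 10.65, 10.67 and 10.71 in the eGFP libraries and at 10.72, 10.68, 10.66 and 10.62 in the Rnf146 libraries. The groups overlapped, with 2 pairs higher and 2 lower. The mean difference was 0.01 ± 0.09 (SD, n = 4 pairs), with a 95% interval from -0.10 to 0.13 (limma, adjusted p = 0.944). *Lats2* (chromosome 14, 57926960 to 57995845, minus strand) is both a kinase of the pathway and a target gene of YAP. Its difference was -0.01, 0.13, 0.03 and 0.11 in the 4 pairs, higher in 3 of 4. The mean of 0.07 ± 0.07 had a 95% interval from -0.04 to 0.18 and an adjusted p of 0.638.

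*Yap1* (chromosome 9, 7932000 to 8004661, minus strand), which encodes YAP, was at 9.96, 10.05, 9.97 and 9.92 in the eGFP libraries. In the Rnf146 libraries it was at 9.99, 9.90, 9.99 and 10.03. The value was higher with Rnf146 in pairs 1, 3 and 4 and lower in pair 2, and the groups overlapped. The mean difference was 0.0039 ± 0.11 (SD, n = 4 pairs), with a 95% interval from -0.12 to 0.13 and an adjusted p of 0.987. *Wwtr1* (chromosome 3, 57363067 to 57483331, minus strand) encodes TAZ, the paralog of YAP. It was at 9.60, 9.54, 9.50 and 9.59 in the eGFP libraries and at 9.52, 9.57, 9.62 and 9.53 in the Rnf146 libraries. Pairs 2 and 3 were higher and pairs 1 and 4 lower, so the groups overlapped here too. The mean of -0.00032 ± 0.09 had a 95% interval from -0.12 to 0.12, and 99.6% of all genes had a larger absolute difference.

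The TEAD genes encode the DNA-binding partners of YAP and TAZ. *Tead1* (chromosome 7, 112278522 to 112506014, plus strand) was at 9.92, 9.92, 9.89 and 9.98 in the eGFP libraries and at 10.04, 10.04, 10.07 and 9.98 in the Rnf146 libraries. The groups did not overlap, which held for 20.6% of all genes. In pair 4 the difference was 0.0030 against 0.11 to 0.19 in the other pairs. The mean of 0.11 ± 0.08 (SD, n = 4 pairs) had a 95% interval from -0.0078 to 0.22, with an unadjusted p of 0.064 and, in limma with the block, an adjusted p of 0.436. Without the block, which counts 6 in place of 3 residual degrees of freedom in these centred values, *Tead1* had an adjusted p of 0.044, and 21.5% of all genes were called. It was the 1 of the 9 genes called in that test.

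*Tead2* (chromosome 7, 44865172 to 44883071, plus strand) had differences of 0.07, -0.0031, -0.10 and 0.05. Its mean of 0.0036 ± 0.08 had a 95% interval from -0.10 to 0.11. *Tead3* (chromosome 17, 28550645 to 28569791, minus strand) differed most in pair 4, at 8.61 in the eGFP and 8.32 in the Rnf146 library. Its differences were 0.04, -0.01, 0.03 and -0.29, with a mean of -0.06 ± 0.16 and an adjusted p of 0.754. Without pair 4 the mean of *Tead3* was 0.02. These 2 genes and *Ccn1* were weakly expressed, with means 0.27 to 0.42 above the lowest gene mean of the table.

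**Figure D2:**
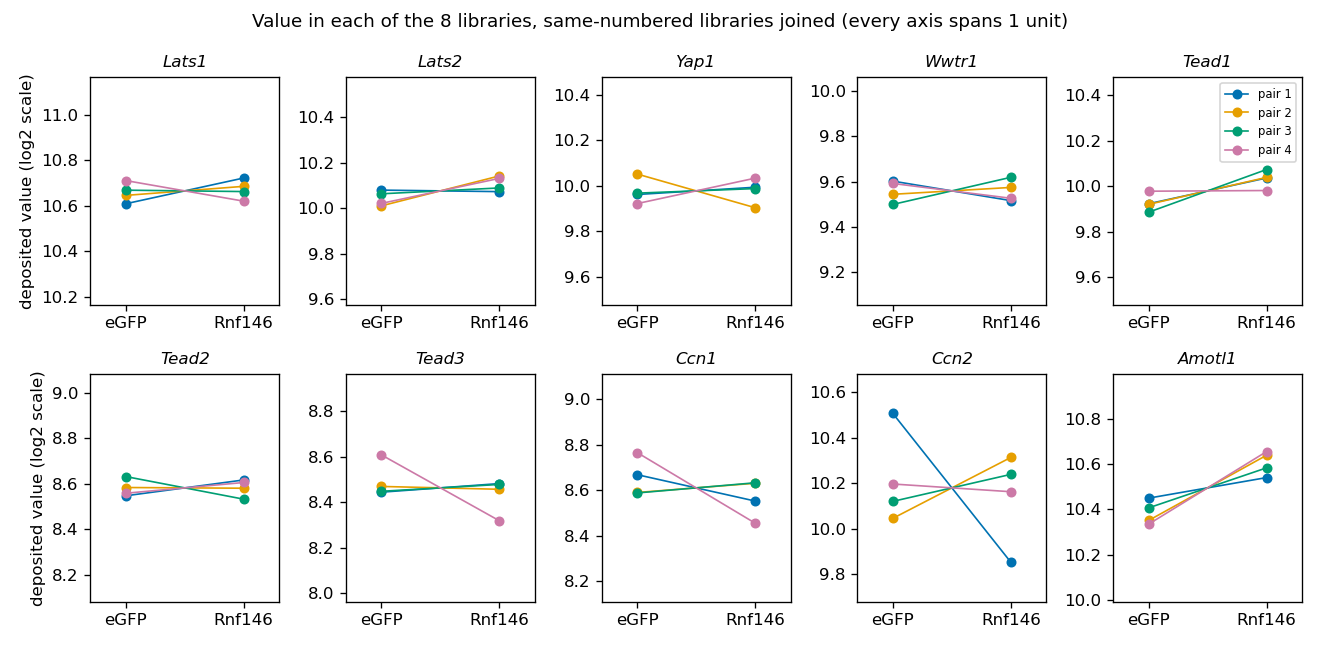
Deposited log2 value of the 9 genes and of *Amotl1* in each eGFP and Rnf146 library, with same-numbered libraries joined and 1 unit shown on every axis. The 4 Rnf146 values of *Tead1* and *Amotl1* lie above their 4 eGFP values, and the groups of the other 8 genes overlap.

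*Ccn1* (chromosome 3, 145352720 to 145355738, minus strand) and *Ccn2* (chromosome 10, 24471333 to 24474900, plus strand) encode secreted matricellular proteins and are the most used readouts of YAP activity. *Ccn1* was at 8.67, 8.59, 8.59 and 8.77 in the eGFP libraries and at 8.55, 8.63, 8.63 and 8.46 in the Rnf146 libraries. It was higher with Rnf146 by 0.04 in pairs 2 and 3, with differences of -0.12 in pair 1 and -0.31 in pair 4. The mean of -0.09 ± 0.17 (SD, n = 4 pairs) had a 95% interval from -0.23 to 0.06 and an adjusted p of 0.648. *Ccn1* is also an early response gene, and all 10 activity-induced early genes of a marker list had a mean difference below 0. Of these, *Fos*, *Fosb* and *Junb* were called lower, beside 0.432% of all genes, and *Fos* had a mean of -0.51 ± 0.25. In limma all 10 had an unadjusted p under 0.05, beside 12.4% of all genes. Lower in all 4 pairs were 9 of the 10, beside 10.2% of all genes. The list averaged -0.30, -0.75, -0.25 and -0.31 in the 4 pairs. Its mean centred value per library ran from 10.31 to 10.56 with eGFP and from 9.82 to 10.06 with Rnf146. The lowest pair of *Ccn1* was pair 4 and that of the list pair 2, and the part of neuronal activity in its values was not tested.

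*Ccn2* was the most variable of the 9 genes, with an SD between pairs of 0.41, at percentile 99.3 of all genes. It was at 10.51, 10.05, 10.12 and 10.20 in the eGFP libraries and at 9.85, 10.31, 10.24 and 10.16 in the Rnf146 libraries. The difference of -0.65 in pair 1 stood against 0.27, 0.12 and -0.03 in the others, and the groups overlapped. The mean of -0.08 ± 0.41 (SD, n = 4 pairs) had a 95% interval from -0.37 to 0.22 and an adjusted p of 0.867, and it turned to 0.12 without pair 1. In cortex *Ccn2* is a known marker of layer 6b, the deepest sheet of neurons above the white matter. *Cplx3*, another marker of these cells, had differences of -0.96, -0.02, 0.11 and -0.17, so that its lowest pair was the same. The 5 layer 6b genes other than *Ccn2*, all of them in the table, averaged -0.26, 0.12, 0.13 and 0.05. *Cplx3* was the most extreme of them in pair 1, where the other 4 ran from -0.19 to 0.19. The mean centred value per library of these 5 genes ran from 9.17 to 9.36 in the eGFP group and from 9.10 to 9.30 in the Rnf146 group. How much tissue of this layer each dissection held was not tested.

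Because RNF146 acts on angiomotins as proteins, the RNA of the whole family was read as well. *Amotl1* (chromosome 9, 14453262 to 14556352, minus strand), whose product tethers YAP at junctions, was at 10.45, 10.35, 10.41 and 10.34 in the eGFP libraries. In the Rnf146 libraries it was at 10.54, 10.64, 10.58 and 10.65, higher in all 4 pairs, beside 10.4% of all genes. Its mean difference of 0.22 ± 0.10 (SD, n = 4 pairs), with a 95% interval from 0.10 to 0.34, gave an unadjusted p of 0.0031 and an adjusted p of 0.142, so it was not called. Without pair 1 the difference was 0.26 with an adjusted p of 0.071, while leaving out another pair gave 0.18 to 0.23 with adjusted p from 0.223 to 0.463. With array weights added its adjusted p in limma was 0.075, and with the block dropped 0.0071. *Amotl2* (chromosome 9, 102593836 to 102610617, plus strand), itself a YAP target, had -0.18, 0.26, 0.18 and 0.26, with a mean of 0.13 ± 0.21 and an adjusted p of 0.528. Without pair 1 its mean was 0.23 with an adjusted p of 0.099, and without any other pair 0.09 to 0.11 with adjusted p from 0.700 to 0.847. *Amot* (chromosome X, 144229421 to 144288177, minus strand) had 0.09, 0.07, -0.13 and -0.05, with a mean of -0.0039 ± 0.10.

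The wider pathway was covered by 6 lists chosen for function, which add 72 genes of the table to the 9. None of the 72 was called (0 of 72 from limma with the replicate block), beside 1.25% of all genes, and 8 had an unadjusted p under 0.05, beside 12.4% of all genes. Their median difference was 0.0042, and 16 of them had the same sign in all 4 pairs, 9 higher and 7 lower, beside the 20.6% of all genes. Without the block 14 of the 72 were called, 8 higher and 6 lower, beside 21.5% of all genes. Without pair 1, which raised the number of genes called over the whole table from 188 to 421, 5 of the 72 were called, namely *Amotl1*, *Amotl2*, *Dock5*, *Strip2* and *Strn4*, beside 2.8% of all genes.

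Among 19 kinases of the cascade and their scaffolds, the median difference was 0.02, with 13 genes above 0 and 6 below. *Stk3* and *Stk4*, which encode the MST kinases, had means of -0.02 ± 0.20 and 0.02 ± 0.09. The highest of the list was *Taok1*, a kinase that activates MST, at 0.11 ± 0.12 with an adjusted p of 0.446. *Map4k2*, a kinase that acts on LATS beside MST, was the lowest. It was lower in all 4 pairs, beside 10.2% of all genes, with differences of -0.23, -0.19, -0.11 and -0.07 and a mean of -0.15 ± 0.07. It did not pass the test (adjusted p = 0.241 in limma with the block, 0.011 if the block is dropped).

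The 21 regulators at membranes and junctions had a median of -0.03, with 9 above 0 and 12 below. *Nf2*, which encodes Merlin, the classical upstream tumour suppressor of the pathway, had a mean of 0.01 ± 0.07. The polarity scaffold *Patj* had differences of 0.23, 0.15, 0.17 and 0.26, the smallest p of this list. Its mean was 0.20 ± 0.05 (adjusted p = 0.123 in limma with the block, 0.087 with array weights added, 0.0017 if the block is dropped). *Pard3*, a polarity protein of the same junctions, had the highest mean at 0.26 ± 0.36, but pair 2 stood at 0.74 and pair 1 at -0.12. *Ptpn14*, a phosphatase that binds YAP and is also one of its targets, had the lowest mean at -0.18 ± 0.28, with 0.12 in pair 1 and -0.49 in pair 4.

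**Figure D3:**
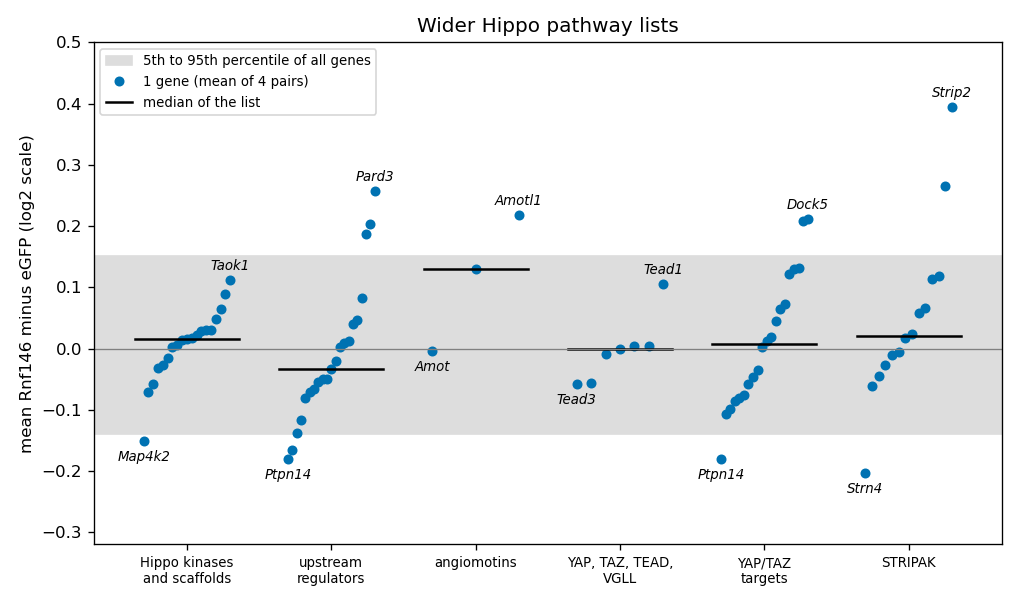
Mean difference between Rnf146 and eGFP libraries (log2 scale) of each gene in 6 lists of the wider Hippo pathway, with the median of each list (black line) and the range from the 5th to the 95th percentile of all genes (grey, -0.14 to 0.15). The medians of 5 lists lie between -0.03 and 0.02, and the median of the 3 angiomotins is 0.13.

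Of a signature of 22 YAP and TAZ target genes, 20 were in the table. From limma with the replicate block 0 of 20 were called, beside 1.25% of all genes. Of these 20 genes, 11 had a mean above 0 and 9 below, with a median of 0.0078. An unadjusted p under 0.05 in limma was found for 1 gene of the 20, beside 12.4% of all genes. That gene was *Rbms3*, an RNA-binding protein, at 0.21 ± 0.25 with an adjusted p of 0.380. The mean over the 20 genes was -0.05, 0.11, 0.02 and -0.03 in the 4 pairs, averaging 0.01 ± 0.07 (SD, n = 4 pairs). Promoter windows were found for 14 of the 20 genes, and 6 of the 14 held the TEAD letters, beside 14.7% of the genes of the table with a window.

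*Dock5*, an activator of the small GTPase Rac, had the highest mean of the target genes at 0.21 ± 0.30 with an adjusted p of 0.442. Its differences were -0.21, 0.27, 0.51 and 0.27, and those of *Amotl2* were likewise below 0 in pair 1 alone. The 10 oligodendrocyte genes, led by *Mbp*, averaged -0.14, 0.47, 0.90 and 0.55 in the same pairs. All 10 had a mean above 0 and 0 were called from limma with the block, beside 1.25% of all genes. The unadjusted p was under 0.05 for 10 of 10, beside 12.4% of all genes. Their mean centred value per library ran from 11.58 to 12.10 in the eGFP group and from 11.96 to 12.48 in the Rnf146 group. The mean of 10 striatal genes was also below 0 in pair 1 alone, at -0.11, 1.32, 0.70 and 0.30. So was that of the 5 layer 6b genes, at -0.26, 0.12, 0.13 and 0.05. The part of myelinating, striatal or layer 6b cells in the *Dock5* and *Amotl2* values was not tested.

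**Figure D4:**
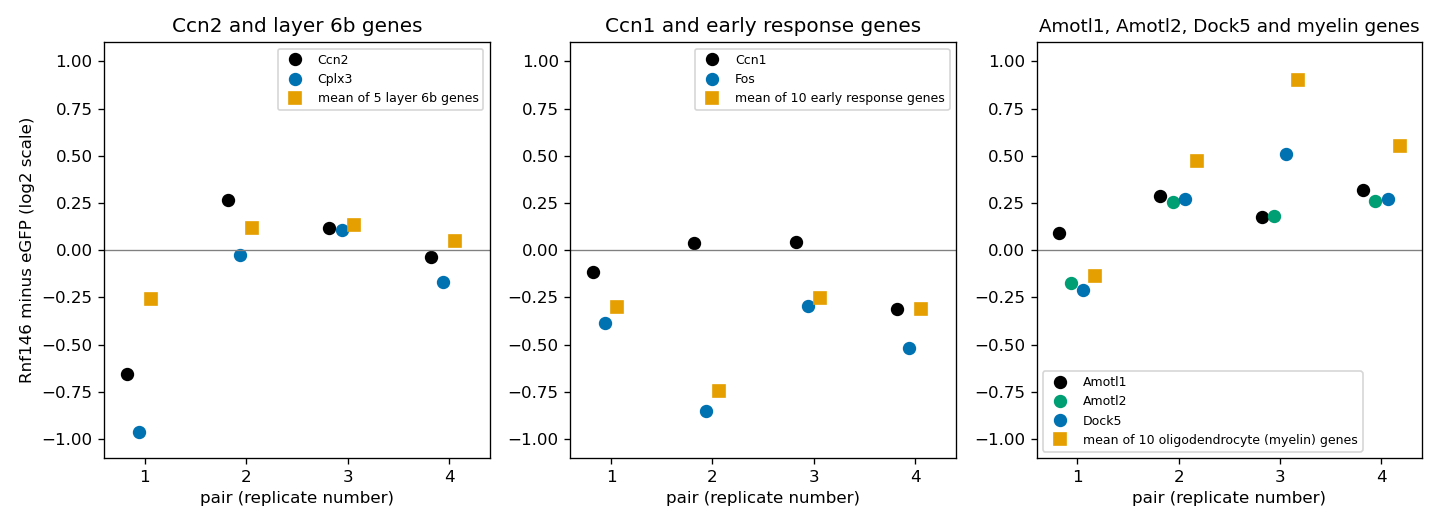
Pair differences (log2 scale, 1 position per pair) of *Ccn2*, *Ccn1*, *Amotl1*, *Amotl2* and *Dock5* (circles) beside marker genes (circles) and the mean of a marker list (squares) of layer 6b, early response and oligodendrocytes. Pair 1 holds the lowest value of *Ccn2*, *Cplx3*, *Amotl1*, *Amotl2*, *Dock5* and the layer 6b and oligodendrocyte means. Pair 2 holds the lowest early response mean, -0.75.

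The STRIPAK complex holds a phosphatase that switches off the MST kinases. Of its 14 genes 8 had a mean above 0 and 6 below, with a median of 0.02, and 0 of 14 were called from limma with the block, beside 1.25% of all genes. An unadjusted p under 0.05 was found for 3 of the 14, beside 12.4% of all genes. *Strip2*, one of its scaffolds, had the highest mean of all these lists at 0.39 ± 0.28, with 0.19, 0.75, 0.49 and 0.14 in the 4 pairs and an adjusted p of 0.140. The mean of 10 striatal genes was likewise highest in pair 2, at 1.32, and their part in the *Strip2* values was not tested. *Strn4*, a regulatory subunit, was lower in all 4 pairs, beside 10.2% of all genes, with differences of -0.09, -0.22, -0.23 and -0.27. Its mean of -0.20 ± 0.08 had an adjusted p of 0.130 in limma with the block, and 0.071 with array weights added.

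Markers were compared for the cell types in which YAP and TAZ are mainly known, and also for microglia, which are not among these. Over all genes 1.25% were called, 0.818% higher and 0.432% lower, and 12.4% had an unadjusted p under 0.05 (limma with the block). The 10 endothelial genes, *Cldn5* among them, averaged 0.01 ± 0.05 (SD, n = 4 pairs), with 0 called and 0 with an unadjusted p under 0.05 from limma. The 10 genes of pericytes and smooth muscle averaged 0.03 ± 0.07, with 0 called and 0 with an unadjusted p under 0.05. The 10 astrocyte genes averaged -0.01 ± 0.05, with 3 means above 0 and 7 below, and 2 had an unadjusted p under 0.05. *Aqp4*, the first gene of this list, had a mean of -0.04 ± 0.08. *Slc4a4*, a bicarbonate transporter, was the 1 of 10 called, higher at 0.32 with an adjusted p of 0.025. The 10 meningeal genes all had a mean below 0, with an average of -0.09 ± 0.16 and 0 called, and 1 had an unadjusted p under 0.05. Of 8 ependymal genes 3 were in the table, and 2 of these, *Foxj1* and *Rarres2*, were called higher, at 0.32 and 0.35. These 2 also had an unadjusted p under 0.05, and the remaining gene had a mean of 0.08. All 10 microglial genes had a mean below 0, and 5 of 10 had an unadjusted p under 0.05. Of the 10, 7 were lower in all 4 pairs, beside 10.2% of all genes. *Cx3cr1*, the first gene of this list, had a mean of -0.08 ± 0.05. *C1qb*, a complement gene, was the 1 of 10 called, lower at -0.26.

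The data limit a change of the 9 genes only on the deposited scale. The 95% intervals of 8 genes lay within 0.24 of 0, and that of *Ccn2* reached -0.37. Differences inside a gene's interval are not excluded by its values. If the values are variance-stabilized, as the tool named in the processing notes offers, low values are compressed, and the differences transformed back ran from -0.34 for *Ccn1* to 0.17 for *Tead1*, with 0 of 9 called, beside 1.22% of all genes.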

How the data were processed

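RNA from the PFC of 4 Rnf146- and 4 eGFP-overexpressing mice was sequenced. The authors trimmed the reads with Cutadapt, quantified transcripts with Salmon 1.9.0 against GENCODE vM30 (GRCm39) and deposited 1 table of log2 values per gene symbol, centred within same-numbered pairs (largest spread of the pair sums 1.4e-13). The notes name DESeq2, but the transformation is not given in the sources used here. Depth is unknown, and no count test was run. What the members of a pair had in common is not stated.

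The main test was limma (version 3.58.1, R 4.3.3) with lmFit, a trended eBayes and a block for the replicate number, adjusted by Benjamini-Hochberg over 15039 genes. The pairing comes from the centring. It fixes the correlation of same-numbered libraries, so no separate check of the pairing was possible. The test was checked on simulated data.

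Members, lists and the block were chosen with earlier results of these data known. The rule named all members, *Rnf146*, the angiomotins, in each wider list the genes called, the highest and lowest mean and the smallest p, and the first gene of a marker list. Given only here are the first genes *Pdgfrb* (pericytes, mean difference 0.03), *Dcn* (meninges, -0.07), *Drd1* (striatum, 0.39) and *Zic1* (septum, 0.99). Outside the rule, and picked with their values in view, are *Stk3*, *Stk4*, *Nf2*, *Slc4a4*, *Rarres2*, *Neurod2*, *Fosb*, *Junb* and *C1qb*. Alternatives were no block, leaving out genes with a mean value under 8.99, median centring, quantile normalization, untrended and robust variances, array weights, each pair left out, an adjusted p of 0.05 and, added after seeing the data, a transformation back from the variance-stabilized form with an offset of 0.5 and 0 counts at the lowest value.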

Additional observations from a re-analysis of the deposited data

Results flagged for a closer look

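The pair differences of 22 named genes and the means of 7 lists were searched for 1 pair far from the rest, by Dixon's criterion for 4 values. Chance alone gives this in about 1 of 20 groups, and 2 were found. The *Tead3* difference of -0.29 in pair 4 lay apart from -0.01 to 0.04 in the others. For the 14 STRIPAK genes, the mean difference was -0.023 in pair 4, while pairs 1 to 3 had 0.072 to 0.079.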

How the results depend on the processing

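The 9 genes gave 0 calls under every alternative but the one with no replicate block, where 1, *Tead1*, was called (adjusted p = 0.044, against 0.403 to 0.723 elsewhere for this gene in limma). The wider lists gave 3 calls of 72 genes with array weights (*Patj*, *Amotl1* and *Strn4*), beside 355 of 15039 over all genes. They gave 14 calls without the block, 0 to 5 with a pair left out, and 0 otherwise. Over all genes, 355 were called with array weights (221 higher, 134 lower), 3226 without the block (1655 higher, 1571 lower) and 80 at an adjusted p of 0.05. With a pair left out the count ran from 14 to 421, with 14 to 302 higher and 0 to 119 lower. It was 421 without pair 1, 42 without pair 2, 169 without pair 3 and 14 without pair 4. The cause was not tested. Means near 0 changed sign: with a pair left out, *Yap1* ran from -0.032 to 0.055, *Wwtr1* from -0.040 to 0.028, *Tead2* from -0.018 to 0.038, *Tead3* from -0.091 to 0.018, *Lats1* from -0.019 to 0.049, *Ccn2* from -0.19 to 0.12 and *Amot* from -0.035 to 0.038. *Tead2* was -0.0075 after quantile normalization and *Lats1* -0.0040 with array weights. The filter on low values removed *Tead2*, *Tead3* and *Ccn1*. Depth is unknown, so counting error could not be given.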
